A study of Mus musculus with 13 samples.

Results

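The genes described are 56 mouse genes of the extracellular matrix: collagens, laminins and their partners, the enzymes that make and crosslink collagen, and the proteases and inhibitors that remodel it. They were taken by symbol from a list of names, a rule that uses no measured value, although the list was drawn up with earlier results of these data known. Of the 56, 47 had a probe named in the array's platform table and 42 were above background on enough arrays to be tested, among 11927 genes tested in all.

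Basement membranes are thin sheets in which a laminin network and a collagen IV network are tied together by nidogens and the proteoglycan perlecan. In the brain they line blood vessels and the outer surface, whereas fibrils of collagen I and III are scarce in normal brain tissue outside vessel walls and meninges. Matrix proteins are altered after secretion by crosslinking enzymes of the lysyl oxidase family, and they are cut by matrix metalloproteinases, which the tissue inhibitors of metalloproteinases (TIMPs) block.

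The tissue was high-grade glioma and control brain of mice, on Illumina arrays read by 1 colour. Tumor suppressor genes, which the labels do not name, were knocked out through an inducible Cre recombinase. In the Nestin-creERT2 model Cre expression follows nestin, an intermediate filament of stem and progenitor cells of the nervous system, and in the NG2-creERTM model it follows NG2, a proteoglycan of oligodendrocyte progenitors and also of pericytes. The Nestin model gave 3 tumors and 3 controls and the NG2 model 4 tumors and 3 controls. A further NG2 tumor named in the design was not analysed here. Each tumor is described as independent and each control as a biological replicate, controls came from control mice at the matching position, and neither the animals' ages nor the genotype of the controls is given. The samples were whole pieces of tissue, so more cells of a type and more RNA per cell cannot be told apart.

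Levels are normalized log2 intensities, on which a difference of 1 is a 2-fold change, and they are not compared between genes. Values on single arrays follow the replicate numbers, number 1 first, and ± is the standard error of the limma fit. A gene counts as higher or lower at a Benjamini-Hochberg adjusted p below 0.05 over all 11927 genes. The arrays lay on 3 slides. On slide 1 were tumors 1 and 2 and controls 1 and 2 of the Nestin model, on slide 2 the 4 tumors and controls 1 and 2 of the NG2 model, and on slide 3 the third replicate of every group but the NG2 tumors. The median raw signal was 175.7 to 209.1 on tumor arrays and 116.9 to 142.1 on control arrays, and 43.5% to 47.5% of probes were above background. Nestin tumor 3 stood apart in 1 respect: the summed level of 4 measured choroid plexus markers was 24903 there, against at most 785.9 on any other array.

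The 2 genes for the main chains of collagen IV lie head to head. In the RefSeq annotation (GRCm38.p6) Col4a1 starts on the minus strand of chromosome 8 and Col4a2 on the plus strand, and their first 22 bases overlap. The stretch is shown once from each strand because its genes are compared below. It is chr8:11312797-11312834, with the overlap of the annotated transcripts in capitals.
Col4a1: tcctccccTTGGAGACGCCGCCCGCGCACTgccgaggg
Col4a2: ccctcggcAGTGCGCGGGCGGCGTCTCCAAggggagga
GGGCGG, the GC box, read on either strand, is found in the 300-base windows of both genes (250 bases before the start to 50 after it). It is also in 35.7% of the 32851 windows of the table, and in 21 of the 29 measured members that have one. Here and below, shares are over windows, while a member counts once if any of its windows has the letters, so the units differ. CCAAT, on either strand, is in the windows of both genes, in 37.4% of all windows and in 13 of the 29. For Timp1, the inhibitor described further on, 30 bases of the plus strand at chrX:20870181-20870210 are shown around the letters TGAGTAA, an AP-1-like motif, in capitals.
Timp1: cggtgggtggaTGAGTAAtgcgtccaggaa
TGAGTAA starts at base 27 of the annotated transcript. On either strand it is in 2.68% of all windows and in 2 of the 29, Timp1 and Lamb2. Such a match describes letters alone.

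Many of the matrix genes were higher in tumors. In Nestin tumors 20 of the 42 measured members were higher than in Nestin controls, at a median difference of 1.16 log2 over all 42, and Lama2 alone was lower. Over all genes 24.4% were higher and 21.9% lower, with a median of 0.06. In NG2 tumors 25 of 42 were higher and 2 lower, at a median of 1.66, against 26.6% higher and 24.1% lower over all genes and a median of 0.09. Higher in tumors of both models were 17 members: Col4a1, Col18a1, Lamc1, Nid2, Col5a1, Col16a1, Fn1, Emilin1, Sparc, Thbs2, Plod1, Plod2, Plod3, Mmp14, Adamts1, Timp1 and Timp4. Of the 42, 29 had their probe above background on all 13 arrays, so most were measured in every group. Thbs1 and the probe used for Col11a1 were above background on no control array, and could enter the test only through tumors.

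**Figure D1:**
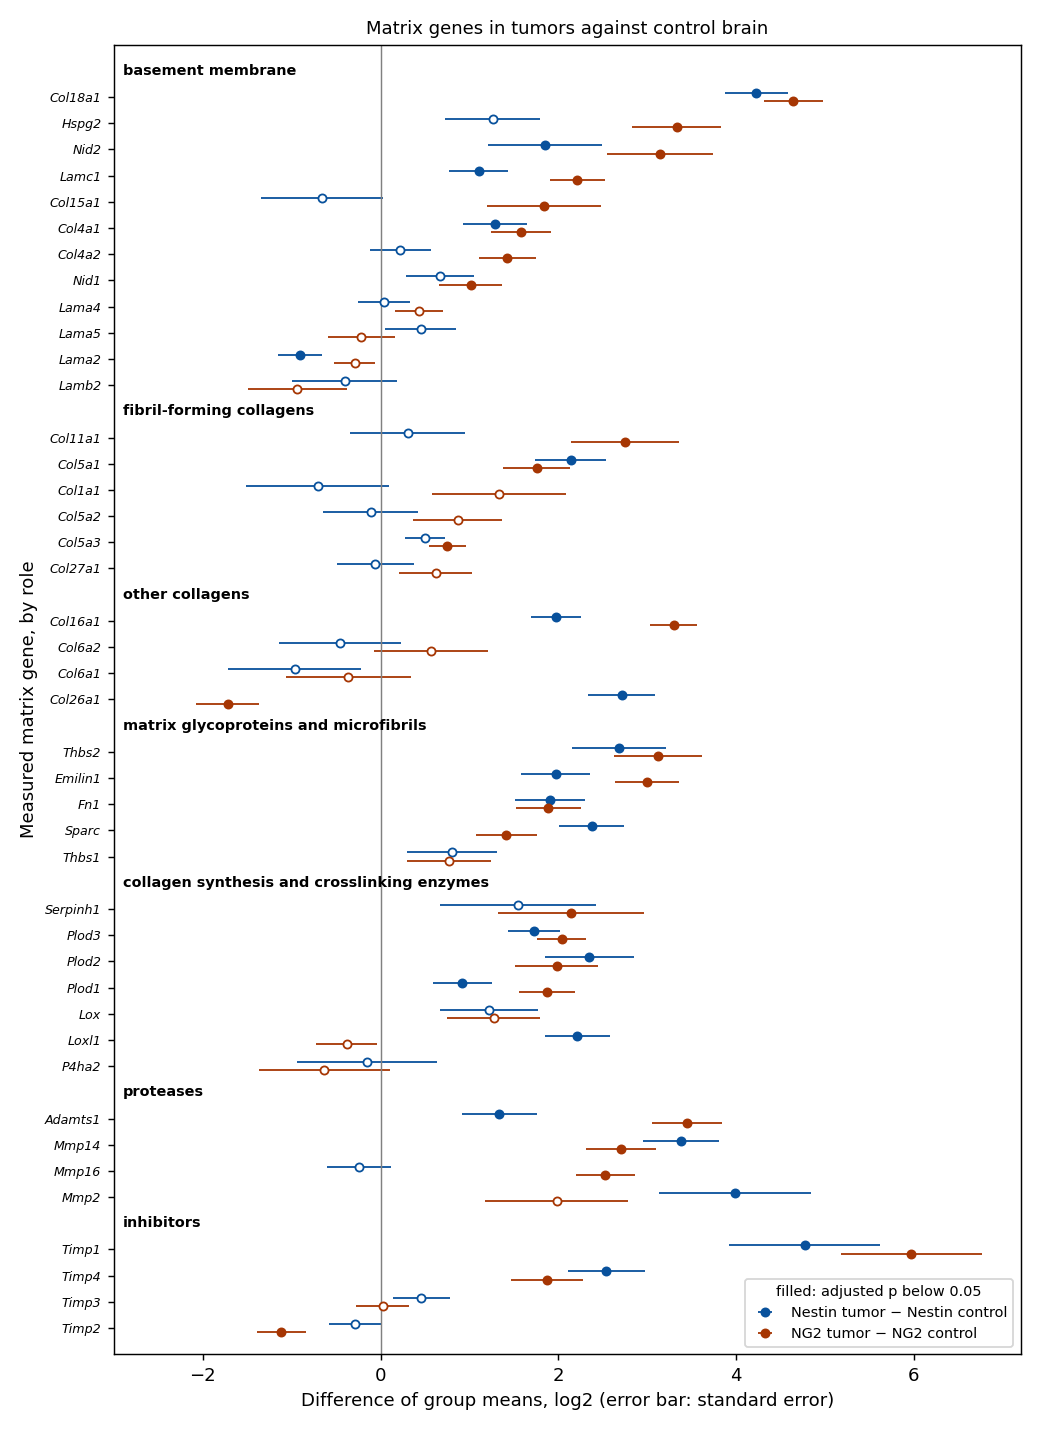
Difference between tumor and control means in log2 (horizontal axis) for each of the 42 measured matrix genes (vertical axis, by role), with its standard error; blue is the Nestin model (3 against 3 arrays), brown the NG2 model (4 against 3), and filled points have an adjusted p below 0.05. Timp1 and Col18a1 lie farthest right in both models, and Col26a1 lies on opposite sides of 0.

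Differences were also taken within each slide. The median difference of the 42 members was 0.92 log2 on slide 1 and 1.66 on slide 3 for the Nestin model, and 1.67 on slide 2 for the NG2 model. All 21 members called in the Nestin comparison kept their sign on slides 1 and 3, and all 27 called in the NG2 comparison kept theirs on slide 2. Those calls came from the same arrays, so the signs are no independent check. Fitted within slide 1 alone, 14 members were higher and 0 lower, where 1822 of 11927 genes were higher and 2000 lower. Within slide 2 alone, 21 members were higher and 1 lower, where 2222 genes were higher and 2178 lower. Slide 3 holds 1 tumor and 1 control of the Nestin model, so its values have no replicate check. Without Nestin tumor 3, the array with choroid plexus markers, 15 of 41 members and 2554 of 11830 genes were higher in Nestin tumors.

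Basement membrane genes were higher in NG2 tumors in 8 of 12 measured cases, with a median difference of 1.5 log2 and none lower. In Nestin tumors 4 of 12 were higher and 1 lower, with a median of 0.56. Over all genes 26.6% were higher and 24.1% lower in the NG2 comparison, and 24.4% and 21.9% in the Nestin one. Endothelial markers were mixed beside the basement membrane genes. Of 10 measured, 4 were higher and 3 lower in NG2 tumors, and 1 was higher and 1 lower in Nestin tumors. Of 7 markers of pericytes and smooth muscle, 4 were higher and 1 lower in NG2 tumors, and 0 were higher and 1 lower in Nestin tumors. On the linear scale these 7 pericyte and smooth muscle markers summed to between 2444 and 4562 in NG2 tumors against 1298 and 1960 in NG2 controls, and to between 1465 and 2667 in Nestin tumors against 1362 and 1558 in Nestin controls. The endothelial markers summed to between 6298 and 8542 in NG2 tumors and 5440 and 6384 in their controls, and to between 4774 and 7670 in Nestin tumors and 5482 and 6264 in theirs. The 7 were the measured ones of 10 listed pericyte and smooth muscle markers, and the 10 those of 12 listed endothelial markers. Acta2 had the highest level of the 7 on every array and weighs most in their sum. It read 9.81, 11.07 and 10.05 in Nestin tumors and 9.47, 9.36 and 9.69 in Nestin controls. The median log2 difference of the 7 was 1.10 in NG2 and -0.46 in Nestin tumors, and that of the 10 endothelial markers 0.49 and -0.30. Their part in the matrix result was not tested.

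Col18a1, the collagen of vascular basement membranes from which endostatin is cut, had the largest rise of the role in both models by the probe used. It read 11.1, 10.21 and 11.52 in Nestin tumors and 7.14, 6.34 and 6.67 in Nestin controls. The NG2 arrays gave 11.81, 12.56, 12.9 and 12.05 in NG2 tumors and 7.88, 7.5 and 7.69 in NG2 controls. No tumor overlapped a control in either model. The differences were 4.23 ± 0.35 (adjusted p = 7.51e-07) and 4.64 ± 0.33 (adjusted p = 8.61e-08), an 18.7-fold and a 25-fold rise. A weaker Col18a1 probe, above background on 7 arrays, gave 1.503 in Nestin tumors and 2.997 in NG2 tumors, and both passed. The size of the rise thus differed by probe.

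Hspg2, which encodes perlecan, rose in NG2 tumors. Its levels were 10.16, 8.94, 11.14 and 11.85 in NG2 tumors and 7.17, 7.29 and 7.12 in NG2 controls, a difference of 3.33 ± 0.50 (adjusted p = 8.43e-05). Nestin arrays gave 8.03, 8.18 and 8.73 in Nestin tumors and 6.94, 7.21 and 7.0 in Nestin controls. There the groups did not overlap either, but the difference of 1.26 ± 0.53 did not pass (adjusted p = 0.0669). It passed with arrays scaled to their medians (1.72), with only the Nestin arrays fitted (1.26) and without NG2 tumor 2 or 4 (1.25 and 1.26). A further Hspg2 probe, above background on all 13 arrays, gave 0.84 in Nestin tumors, which did not pass (adjusted p = 0.226). In NG2 tumors that probe gave 3.18 and passed. Of the nidogens, the linkers between the laminin and collagen IV networks, Nid2 read 7.13, 8.68 and 8.03 in Nestin tumors and 6.24, 6.06 and 6.0 in Nestin controls, and 9.53, 8.08, 10.57 and 11.43 in NG2 tumors and 6.7, 6.55 and 7.02 in NG2 controls. The rise of Nid2 was 1.85 ± 0.64 in the Nestin model (adjusted p = 0.0288) and 3.15 ± 0.60 in the NG2 model (adjusted p = 0.00059). All tumors exceeded all controls of their model. In the Nestin model this call was lost without Nestin tumor 2 (1.48), Nestin tumor 3 (1.79) or any Nestin control (1.81 to 1.92), with the normexp background correction (1.26), without background correction (0.93), with slide as a fixed block (1.85) and within slide 1 (1.75).

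The other nidogen, Nid1, also passed in NG2 tumors. Its levels were 8.78, 7.72, 7.9 and 9.13 in NG2 tumors and 7.53, 7.0 and 7.58 in NG2 controls, a difference of 1.01 ± 0.36 (adjusted p = 0.0294) that was lost without NG2 tumor 1 (0.88), NG2 tumor 4 (0.76), NG2 control 1 (1.10) or NG2 control 2 (0.83), with no filter on dim probes (1.01), within slide 2 (1.12) and with only the NG2 arrays fitted (1.01). On Nestin arrays they were 6.5, 6.83 and 7.34 in Nestin tumors and 5.91, 6.12 and 6.63 in Nestin controls, with an overlap and a difference of 0.67 ± 0.38 that did not pass (adjusted p = 0.168).

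The head-to-head collagen IV genes both rose in NG2 tumors, and Col4a1 also passed in Nestin tumors. Col4a1 read 11.52, 10.42, 10.98 and 11.77 in NG2 tumors and 9.51, 9.35 and 9.94 in NG2 controls, and Col4a2 10.76, 9.69, 10.44 and 11.1 in NG2 tumors and 8.74, 9.26 and 9.21 in NG2 controls. All NG2 tumors exceeded all NG2 controls for both genes, by 1.58 ± 0.34 for Col4a1 (adjusted p = 0.00147) and 1.43 ± 0.32 for Col4a2 (adjusted p = 0.002). On Nestin arrays Col4a1 gave 10.45, 9.75 and 11.06 in Nestin tumors and 9.25, 9.22 and 8.94 in Nestin controls. It rose there by 1.28 ± 0.36 (adjusted p = 0.00979), a call lost without Nestin tumor 3 (0.96) and within slide 1 (0.87). Col4a2 gave 9.04, 8.95 and 9.91 in Nestin tumors and 9.0, 9.09 and 9.15 in Nestin controls. Only Nestin tumor 3 lay above the Nestin controls, and the difference of 0.22 ± 0.34 did not pass (adjusted p = 0.624). The difference between these effects of the 2 models was -0.29 ± 0.49 for Col4a1 and -1.20 ± 0.47 for Col4a2, and neither passed (adjusted p = 0.804 and 0.179). Without NG2 tumor 2 that of Col4a2 passed (-1.47, adjusted p = 0.0491).

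Lamc1, the gamma chain shared by most laminins, read 9.0, 10.1 and 9.89 in Nestin tumors and 8.54, 8.62 and 8.52 in Nestin controls, and 10.9, 10.17, 10.79 and 11.29 in NG2 tumors and 9.02, 8.23 and 8.46 in NG2 controls. Its rise was 1.10 ± 0.33 in the Nestin model (adjusted p = 0.0137) and 2.21 ± 0.31 in the NG2 model (adjusted p = 4.52e-05). All tumors were above all controls of their model, and the Nestin call was lost without Nestin tumor 2 (0.89) or 3 (0.99) and within slide 1 (0.97). Lama2, an alpha chain of the membranes around astrocyte endfeet and pericytes, read 6.13, 6.2 and 5.68 in Nestin tumors and 7.03, 6.72 and 6.99 in Nestin controls. It was lower in Nestin tumors (-0.91 ± 0.25, adjusted p = 0.00883), with no overlap. The call was lost with arrays scaled to their medians (-0.53) and within slide 1 (-0.71), and the value was -0.35 without background correction. On NG2 arrays it read 6.43, 6.06, 6.66 and 6.41 in NG2 tumors and 7.06, 6.48 and 6.5 in NG2 controls, and its difference of -0.29 ± 0.23 did not pass. Lama4 and Lama5, alpha chains of endothelial membranes, differed by 0.04 ± 0.29 and 0.45 ± 0.40 in Nestin tumors and by 0.44 ± 0.27 and -0.22 ± 0.38 in NG2 tumors, and Lamb2, a beta chain, by -0.41 ± 0.59 and -0.94 ± 0.55. None of these passed by the probe used. For Lama4 that probe was above background on 5 of 13 arrays. A weaker Lama4 probe, above background on 3, passed as 0.99 higher in the NG2 comparison (adjusted p = 7.37e-05), as did the mean of the probes (0.71) and the probe used without NG2 control 2 (0.75). Lamb2 passed as lower without Nestin tumor 2 in both models (-1.25 and -0.94) and, in NG2 tumors, with only the NG2 arrays fitted (-0.94).

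Col15a1, a collagen of the outer face of basement membranes, was above background on 3 of 4 NG2 tumors, 1 of 3 NG2 controls and 2 of 3 Nestin controls, and on no Nestin tumor. Its 4 NG2 tumors lay between 4.98 and 9.11 and the 3 NG2 controls between 4.68 and 5.55, so they overlap. The difference of 1.84 ± 0.64 passed (adjusted p = 0.0282), fell to 1.10 without NG2 tumor 4, and did not pass without NG2 control 1 (1.83) or 2 (1.64), without background correction (0.80), with cyclic loess (1.67), with slide as a fixed block (2.06), within slide 2 (2.06) or with only the NG2 arrays fitted (1.84). Nestin controls exceeded the Nestin tumors at least 1.01-fold (adjusted p = 0.463), at means of 5.42 and 4.76. Lamb1 was above background on 0 of 13 arrays and was not tested.

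**Figure D2:**
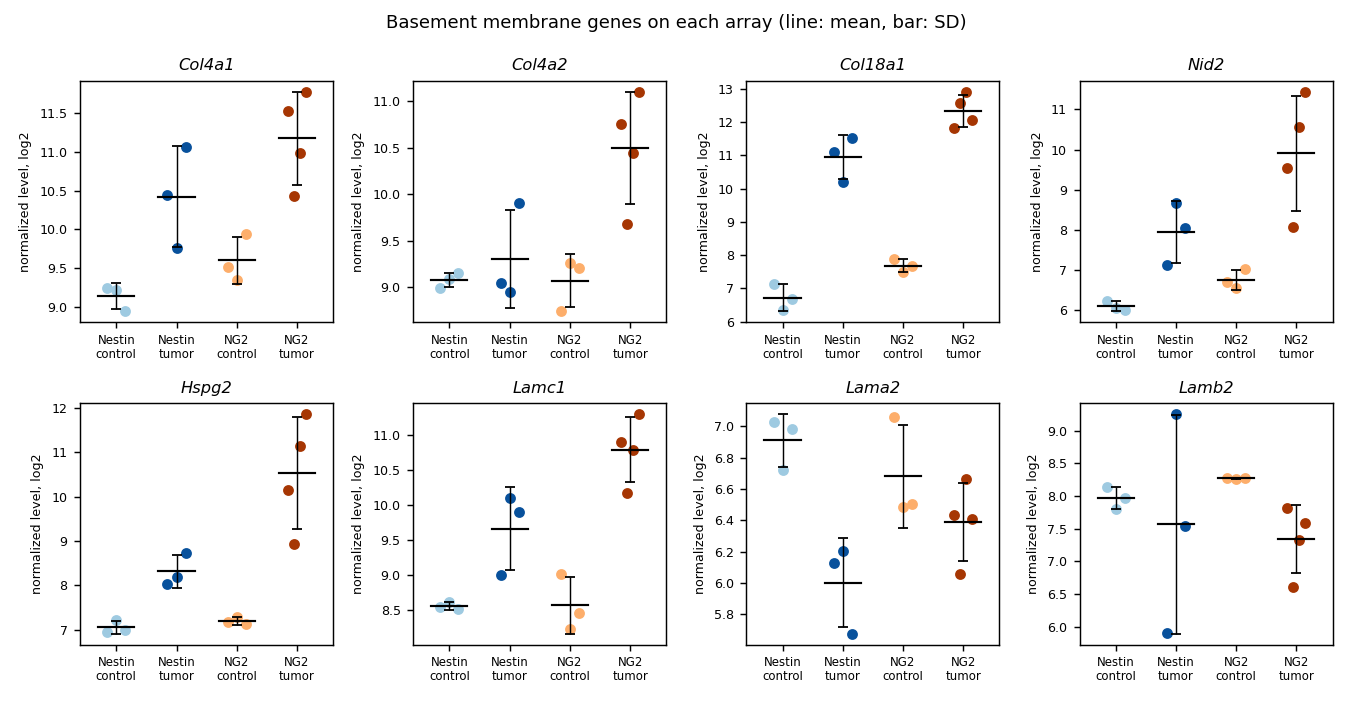
Normalized log2 level on every array (points), with the group mean (line) and SD (bar), for 8 basement membrane genes in controls and tumors of each model; each panel has its own axis. Col18a1 is high in all 7 tumors, Col4a2 is high in the 4 NG2 tumors, and Lama2 is lower in the Nestin tumors than in their controls.

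Fewer fibril-forming collagens were measured, at 6 against 12 basement membrane genes. In Nestin tumors 1 of 6 was higher, with a median difference of 0.12 log2, and in NG2 tumors 3 of 6, with a median of 1.10. No fibril-forming collagen was lower in either. Over all genes 24.4% were higher and 21.9% lower in the Nestin comparison, and 26.6% and 24.1% in the NG2 one. With 6 genes, these counts do not set the role apart from basement membrane genes. Col1a2, above background on 2 of 13 arrays, and Col3a1, on 0, did not reach the test, so of the major fibril collagens only Col1a1 was measured. Of 10 fibroblast and meningeal markers, 0 were higher and 3 lower in Nestin tumors, and 0 were higher and 6 lower in NG2 tumors. Those markers summed to between 15873 and 18165 in NG2 controls and 2641 and 15334 in NG2 tumors, and to between 4200 and 13799 in Nestin controls and 1223 and 10006 in Nestin tumors. On single arrays they went separate ways. Lum read 9.36 and 9.58 in NG2 tumors 3 and 4, against 7.07 to 7.62 in NG2 controls. Ogn read 5.84 and 4.68 in those tumors, against 9.54 to 10.02 in the controls. The part of such cells in the collagen levels was not tested.

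Col5a1, which encodes a collagen V chain that sets the width of collagen I fibrils, was the member of this role that rose in both models. It read 9.85, 10.45 and 10.39 in Nestin tumors and 8.56, 7.87 and 7.85 in Nestin controls, and 8.32, 9.46, 9.86 and 9.96 in NG2 tumors and 8.14, 7.35 and 7.45 in NG2 controls. The groups did not overlap in either model, at 2.14 ± 0.40 (adjusted p = 0.000626) and 1.75 ± 0.37 (adjusted p = 0.00139). Col5a3, another collagen V chain, rose by 0.75 ± 0.21 in the NG2 model (adjusted p = 0.00853) and differed by 0.50 ± 0.22 in the Nestin model (adjusted p = 0.0843). Within slide 2 the Col5a3 call was lost, at 0.64.

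Col11a1, a collagen XI chain known from cartilage, read 7.05, 6.46, 6.95 and 10.04 in NG2 tumors and 4.63, 4.91 and 5.09 in NG2 controls. NG2 tumor 4 was far above the other NG2 tumors, and all 4 exceeded their controls. Its probe was above background on no NG2 control, so the rise is at least 4.77-fold (adjusted p = 0.00186; means 7.63 and 4.88). On Nestin arrays, none of them above background, it read 5.02, 5.35 and 5.02 in Nestin tumors and 4.77, 4.91 and 4.81 in Nestin controls, and no fold is given. A weaker Col11a1 probe, above background on 5 arrays, gave 0.31 in NG2 tumors and did not pass.

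The other fibril-forming collagens did not pass in either model, and their spread was wide among NG2 tumors. Col1a1, a chain of collagen I, read 6.02, 4.81, 7.07 and 9.08 in NG2 tumors and 5.41, 5.55 and 5.27 in NG2 controls, a difference of 1.34 ± 0.75 (adjusted p = 0.156). NG2 tumors 3 and 4 were above the controls, NG2 tumor 1 was slightly above them and NG2 tumor 2 below. Without NG2 tumor 2 the difference was 1.96 and passed (adjusted p = 0.0237). In Nestin tumors Col1a1 was above background on 0 of 3 arrays, and it was on 1 of 3 Nestin controls, at least 1.06-fold higher in controls (adjusted p = 0.501; means 5.50 and 4.79). Col5a2 differed by 0.87 ± 0.50 in NG2 tumors, passed without NG2 tumor 2 (1.26), and was above background on no Nestin array. Col27a1 differed by -0.06 ± 0.44 and 0.62 ± 0.41.

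The remaining measured collagens went separate ways. Col16a1, which sits on the surface of fibrils, read 11.56, 10.59 and 11.74 in Nestin tumors and 9.41, 9.51 and 9.04 in Nestin controls, and 12.58, 12.55, 12.74 and 13.1 in NG2 tumors and 9.77, 9.27 and 9.3 in NG2 controls. All tumors were above all controls, by 1.97 ± 0.28 (adjusted p = 8.52e-05) and 3.30 ± 0.27 (adjusted p = 2.83e-07). The microfibril-forming collagen VI genes did not pass: Col6a1 differed by -0.97 ± 0.75 and -0.36 ± 0.70, and Col6a2 by -0.46 ± 0.69 and 0.56 ± 0.64. Both were high in NG2 tumors 3 and 4, where Col6a1 read 11.75 and 12.19 and Col6a2 7.98 and 7.82, and lower in NG2 tumors 1 and 2. Col8a1 was above background on 2 arrays and was not tested. Col6a3, Col12a1 and Col20a1 were not analysed here.

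Col26a1, a short collagen with an EMI domain, had opposite effects in the 2 models. It read 10.32, 9.22 and 11.09 in Nestin tumors and 7.72, 7.65 and 7.12 in Nestin controls, a rise of 2.71 ± 0.38 (adjusted p = 6.57e-05). On NG2 arrays it read 5.37, 4.95, 5.42 and 4.96 in NG2 tumors and 6.82, 6.99 and 6.87 in NG2 controls, a difference of -1.72 ± 0.35 (adjusted p = 0.00111). Without background correction that difference was -0.59 and did not pass (adjusted p = 0.0893), and with the mean of its probes it was -0.81 and passed. The groups did not overlap in either model, and its probe was above background on 1 of 4 NG2 tumors and on every array of the other groups. The rises were 2.09 on slide 1 and 3.97 on slide 3, and the difference on slide 2 was -1.73. The difference between the 2 effects was 4.43 ± 0.52 (adjusted p = 0.000323).

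The rise of matrix glycoproteins was shared by the models: 4 of 5 measured were higher in Nestin tumors and the same 4, Fn1, Emilin1, Sparc and Thbs2, in NG2 tumors. Over all genes 24.4% and 26.6% were higher. Thbs2, a thrombospondin that limits vessel growth and binds proteases, read 9.37, 10.04 and 11.76 in Nestin tumors and 7.83, 7.71 and 7.6 in Nestin controls, and 11.09, 11.32, 12.66 and 11.44 in NG2 tumors and 9.02, 7.89 and 8.6 in NG2 controls. All tumors were above the controls of their model, by 2.68 ± 0.53 (adjusted p = 0.000958) and 3.13 ± 0.49 (adjusted p = 0.000137). Sparc, a collagen-binding protein made by glia and vessels, read 12.46, 13.23 and 13.61 in Nestin tumors and 10.4, 10.8 and 10.97 in Nestin controls, and 12.25, 12.32, 13.46 and 13.59 in NG2 tumors and 11.36, 11.54 and 11.56 in NG2 controls. Again no groups overlapped, with rises of 2.38 ± 0.37 (adjusted p = 0.000152) and 1.42 ± 0.34 (adjusted p = 0.00358). A Sparc probe above background on all 13 arrays gave 2.33 and 1.28, and both passed. One above background on 10 arrays gave 2.18 and 1.12, and the NG2 value did not pass. Emilin1, a glycoprotein of elastic fibers, read 7.6, 7.41 and 7.57 in Nestin tumors and 5.99, 5.25 and 5.43 in Nestin controls, and 8.71, 7.91, 8.98 and 9.22 in NG2 tumors and 5.89, 4.92 and 6.32 in NG2 controls. It rose by 1.97 ± 0.39 (adjusted p = 0.000919) and 3.00 ± 0.36 (adjusted p = 1.27e-05) without overlap, though its probe was above background on only 1 of 3 Nestin and 2 of 3 NG2 controls. Fn1, which encodes fibronectin, rose by 1.91 ± 0.39 (adjusted p = 0.0013) and 1.89 ± 0.37 (adjusted p = 0.000724). A weaker Fn1 probe, above background on 6 arrays, gave 0.45 in Nestin tumors, which did not pass, and 0.71 in NG2 tumors, which did.

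Thbs1, the related thrombospondin, was above background on 3 of 13 arrays, Nestin tumor 3 and NG2 tumors 1 and 3 with levels of 6.84, 5.57 and 6.54. As no control was above background, Thbs1 was at least 1.02-fold higher in Nestin tumors (adjusted p = 0.208; means 5.44 and 4.63) and at least 1.06-fold higher in NG2 tumors (adjusted p = 0.193; means 5.46 and 4.70), and neither passed. Postn, for periostin, was above background on no array. Fbn1 and Fbn2 were not analysed here.

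Of the enzymes that modify collagen, all 3 lysyl hydroxylases, which prepare its lysines for crosslinks and sugars, rose in both models. Plod2 read 7.7, 8.15 and 8.73 in Nestin tumors and 5.76, 5.97 and 5.79 in Nestin controls, and 9.67, 8.18, 7.3 and 9.43 in NG2 tumors and 6.75, 6.41 and 6.83 in NG2 controls. Plod3 read 12.25, 12.28 and 12.87 in Nestin tumors and 10.72, 11.11 and 10.39 in Nestin controls, and 12.33, 12.6, 12.16 and 13.16 in NG2 tumors and 10.88, 10.6 and 10.09 in NG2 controls. Plod1 read 7.07, 7.18 and 7.49 in Nestin tumors and 6.49, 6.07 and 6.41 in Nestin controls, and 8.45, 7.71, 8.3 and 9.26 in NG2 tumors and 6.58, 6.29 and 6.8 in NG2 controls. For all 3 genes every tumor was above every control of its model. Plod2 rose by 2.35 ± 0.50 (adjusted p = 0.00165) and 1.98 ± 0.47 (adjusted p = 0.00293), and Plod3 by 1.73 ± 0.29 (adjusted p = 0.000313) and 2.04 ± 0.27 (adjusted p = 3.31e-05). A Plod2 probe above background on 11 arrays gave 2.48 and 2.13, and both passed. One above background on 7 arrays gave 0.42 and 0.27, and neither passed. For Plod1 the rise was 1.87 ± 0.31 in the NG2 model (adjusted p = 0.00022) and 0.92 ± 0.34 in the Nestin model (adjusted p = 0.0369). That Nestin call was lost without Nestin tumor 2 (0.95) or 3 (0.79) or any Nestin control (0.80 to 1.01), with normexp (0.59), without background correction (0.41), with cyclic loess (0.82), with no filter on dim probes, with slide as a fixed block (both 0.92) and within slide 1 (0.84).

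Serpinh1, the chaperone of newly made collagen, varied most among tumors of this role. It read 11.87, 9.66, 13.15 and 13.22 in NG2 tumors and 9.82, 9.94 and 9.73 in NG2 controls. NG2 tumor 2 lay below the controls and the other 3 above them, and the rise of 2.14 ± 0.82 passed narrowly (adjusted p = 0.0423). The call was lost without NG2 tumor 1 (2.19), 3 (1.75) or 4 (1.74), without any NG2 control (2.09 to 2.19) and without any Nestin control (2.14), and with cyclic loess (2.01), no filter on dim probes (2.14), slide as a fixed block or within slide 2 (both 2.09). On Nestin arrays Serpinh1 read 9.26, 12.89 and 10.45 in Nestin tumors and 9.05, 9.34 and 9.58 in Nestin controls, with an overlap and a difference of 1.55 ± 0.88 (adjusted p = 0.165) that passed without Nestin tumor 1 (2.34) and with arrays scaled to their medians (2.12). P4ha2, a subunit of a prolyl hydroxylase that stabilises the collagen helix, differed by -0.15 ± 0.78 and -0.63 ± 0.73 and did not pass.

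Loxl1, a lysyl oxidase needed for elastic fibers, rose in Nestin tumors. Its levels were 9.44, 9.3 and 10.5 in Nestin tumors and 7.43, 7.39 and 7.78 in Nestin controls, a rise of 2.21 ± 0.37 (adjusted p = 0.000254) with no overlap. On NG2 arrays they were 9.35, 8.69, 8.4 and 7.92 in NG2 tumors and 9.03, 8.81 and 9.07 in NG2 controls, with an overlap and a difference of -0.38 ± 0.34 (adjusted p = 0.377). Tested directly, the effects differed by 2.59 ± 0.50 (adjusted p = 0.0118). Lox, the founding member of the family, was above background on no Nestin control and at least 1.63-fold higher in Nestin tumors (adjusted p = 0.086; means 6.12 and 4.90). It differed by 1.27 ± 0.52 in NG2 tumors (adjusted p = 0.0546), and neither passed. The Nestin difference passed without Nestin tumor 1 (1.74) or NG2 tumor 3 (1.21) and with only the Nestin arrays fitted (1.22), and the NG2 one without NG2 tumor 1 (1.63), NG2 tumor 2 (1.52) or Nestin tumor 1 (1.27) and with arrays scaled to their medians (1.37). Loxl2 was not analysed here.

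Of 4 measured proteases, 3 were higher in each model, where 24.4% of all genes were higher in Nestin tumors and 26.6% in NG2 tumors. Mmp14, a membrane-bound metalloproteinase that cuts collagen and activates the Mmp2 proenzyme, read 11.81, 12.39 and 11.91 in Nestin tumors and 8.48, 8.71 and 8.77 in Nestin controls, and 10.76, 12.91, 12.36 and 12.61 in NG2 tumors and 9.83, 9.35 and 9.18 in NG2 controls. Every tumor was above every control of its model, by 3.38 ± 0.42 (adjusted p = 2.57e-05) and 2.71 ± 0.40 (adjusted p = 6.97e-05). Mmp2, a gelatinase, read 11.54, 10.13 and 11.07 in Nestin tumors and 6.61, 7.24 and 6.93 in Nestin controls. This was a rise of 3.99 ± 0.86 (adjusted p = 0.00182), with all Nestin tumors far above their controls. NG2 arrays gave 8.21, 8.17, 11.79 and 6.94 in NG2 tumors and 6.64, 6.74 and 7.0 in NG2 controls. NG2 tumor 3 alone reached the levels of the Nestin tumors and NG2 tumor 4 lay within the controls, and the difference of 1.98 ± 0.80 did not pass (adjusted p = 0.0535). It passed without NG2 tumor 4 (2.59), with arrays scaled to their medians (2.39) and with detection required on every array of a group (1.98). The 2 effects differed by 2.00 ± 1.18 and this did not pass (adjusted p = 0.393), but without NG2 tumor 3 the difference was 3.01 and passed (adjusted p = 0.0122).

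Adamts1, a secreted protease that cuts proteoglycans of the brain matrix, read 7.61, 7.37 and 8.29 in Nestin tumors and 6.05, 6.81 and 6.4 in Nestin controls, and 8.09, 9.25, 9.89 and 9.82 in NG2 tumors and 6.0, 5.65 and 5.8 in NG2 controls. It rose in both models without overlap, by 1.34 ± 0.42 (adjusted p = 0.0184) and 3.45 ± 0.39 (adjusted p = 7.54e-06). The Nestin call was lost without Nestin tumor 3 (1.06) or Nestin control 1 (1.16), without background correction (0.67), with the mean of its probes (0.66) and within slide 1 (1.06), and the 2 weaker probes of the gene gave -0.08 and 0.72 there against 0.91 and 1.78 in NG2 tumors. Mmp16, a membrane-bound metalloproteinase of brain, read 9.03, 8.92 and 8.85 in Nestin tumors and 9.4, 9.28 and 8.84 in Nestin controls, and 10.3, 10.38, 10.09 and 11.7 in NG2 tumors and 8.46, 7.9 and 7.91 in NG2 controls. It rose in NG2 tumors with no overlap, by 2.53 ± 0.33 (adjusted p = 2.75e-05), while its difference in Nestin tumors was -0.24 ± 0.36 (adjusted p = 0.608). The effects differed by -2.77 ± 0.49 (adjusted p = 0.00692). A further Mmp16 probe, above background on all arrays, gave 2.38 in NG2 tumors and -0.28 in Nestin tumors. Mmp15, Adamts4 and Adamts5 were not analysed here.

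The 4 inhibitors split by gene. Timp1, a secreted inhibitor known to be induced in injured brain, read 7.32, 11.1 and 11.5 in Nestin tumors and 5.03, 5.23 and 5.35 in Nestin controls. The Nestin controls were all below background, so the rise is at least 23.6-fold (adjusted p = 0.000435; means 9.97 and 5.20). Nestin tumor 1 was far below the other Nestin tumors and still above every control. NG2 arrays gave 10.57, 11.71, 12.93 and 11.54 in NG2 tumors and 5.19, 6.15 and 5.8 in NG2 controls, with 2 of 3 controls above background, and the rise was 5.97 ± 0.79 (adjusted p = 2.85e-05). A weaker Timp1 probe gave 4.79 and 6.27. Within slide 1 the Timp1 difference was 4.08 and did not pass with 2 tumors against 2 controls.

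Timp4, an inhibitor expressed in brain and heart, rose in both models. It read 11.47, 12.86 and 11.11 in Nestin tumors and 8.84, 9.57 and 9.4 in Nestin controls, and 10.96, 11.13, 10.05 and 11.34 in NG2 tumors and 8.57, 9.52 and 8.91 in NG2 controls. No groups overlapped, at 2.54 ± 0.43 (adjusted p = 0.000331) and 1.87 ± 0.41 (adjusted p = 0.00166). Timp2, which takes part in the activation of Mmp2 by Mmp14, read 10.97, 11.86 and 11.27 in Nestin tumors and 11.84, 11.57 and 11.55 in Nestin controls, and 11.37, 10.3, 11.19 and 10.94 in NG2 tumors and 11.7, 12.06 and 12.42 in NG2 controls. It fell in NG2 tumors, all of which lay below their controls (-1.11 ± 0.27, adjusted p = 0.00388), a call lost within slide 2 (-0.93) and when arrays were scaled to their medians (-0.59). In Nestin tumors Timp2 differed by -0.29 ± 0.29 with an overlap. Timp3, the inhibitor that binds to the matrix, read 10.42, 11.57 and 10.79 in Nestin tumors and 10.32, 10.43 and 10.65 in Nestin controls, and 10.66, 10.86, 11.79 and 11.42 in NG2 tumors and 11.12, 10.95 and 11.41 in NG2 controls. Tumors and controls overlapped, and its differences of 0.46 ± 0.32 and 0.02 ± 0.30 did not pass, though with arrays scaled to their medians the Nestin one did (1.03).

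**Figure D3:**
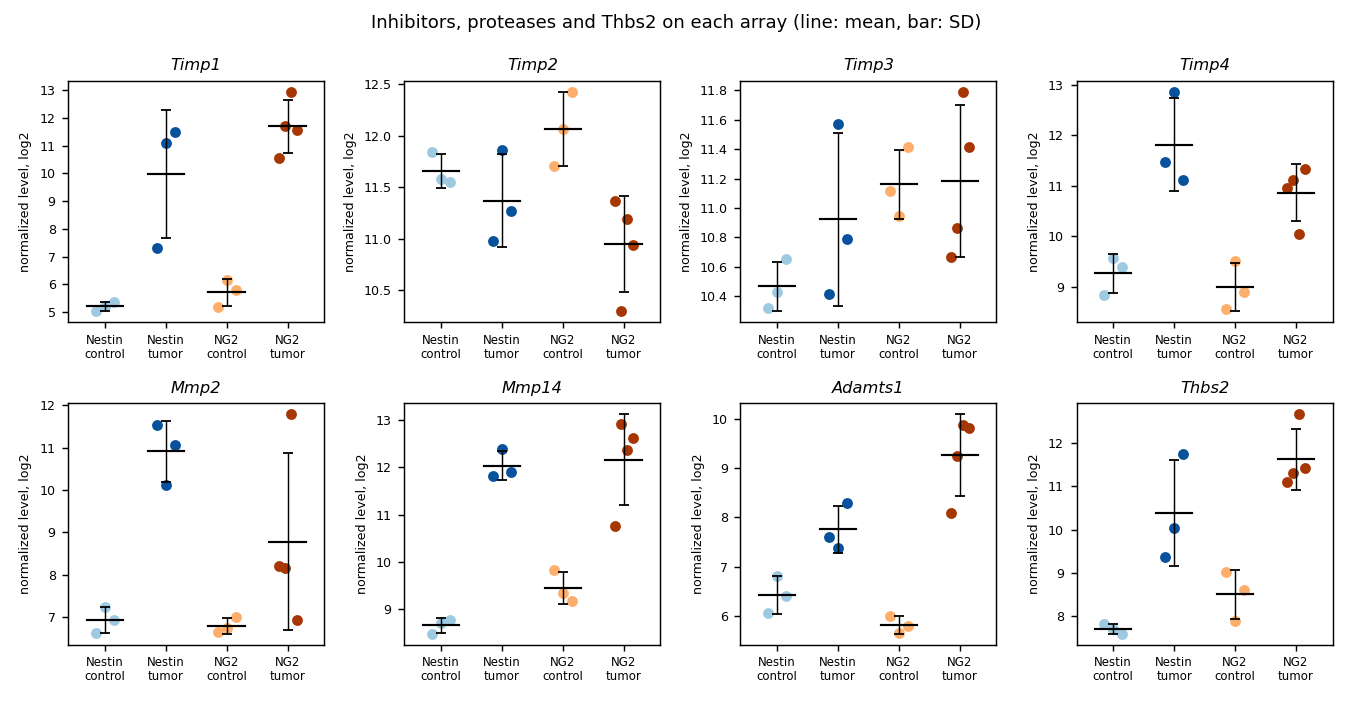
Normalized log2 level on every array (points), with the group mean (line) and SD (bar), for the 4 Timp genes, 3 proteases and Thbs2; each panel has its own axis. Timp1 and Mmp14 are above the controls in all 7 tumors, Timp2 is lower in NG2 tumors, and Mmp2 is high in the 3 Nestin tumors and in NG2 tumor 3.

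Set against each other, the tumors of the models differed mainly in that members were lower in Nestin tumors. Of 42 members 10 were lower and 1 higher in Nestin than in NG2 tumors, at a median difference of -0.90 log2, where 3.45% of all genes were lower and 5.54% higher. Of the 10, 5 were basement membrane genes. Hspg2 differed by -2.21 ± 0.50 (adjusted p = 0.0144), Nid1 by -1.49 ± 0.36 (adjusted p = 0.0202), Col18a1 by -1.39 ± 0.33 (adjusted p = 0.0194), Col4a2 by -1.19 ± 0.32 (adjusted p = 0.0345) and Lamc1 by -1.12 ± 0.31 (adjusted p = 0.0384). Hspg2, Nid1, Col18a1 and Lamc1 did not overlap between the tumor groups, and Col4a2 did. The others were Col16a1 (-1.45 ± 0.27, adjusted p = 0.005), Mmp16 (-1.69 ± 0.33, adjusted p = 0.00773), Adamts1 (-1.50 ± 0.39, adjusted p = 0.0316), Plod1 (-1.19 ± 0.31, adjusted p = 0.0333) and Col11a1, which was at least 4.66-fold higher in NG2 tumors (adjusted p = 0.0223; means 7.63 and 5.13). Col26a1 was higher in Nestin tumors by 5.04 ± 0.35 (adjusted p = 1.69e-05).

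These calls between tumor groups rest on slide as well as on model, since no slide held tumors of both, and the 2 cannot be told apart from tumors alone. With slide as a fixed block the values were -1.92 for Hspg2, -1.37 for Nid1, -1.13 for Col18a1, -1.06 for Col4a2, -0.86 for Lamc1 and 5.32 for Col26a1, and 0 of the 11 passed limma's test, as did 0 of 11927 genes, where 4 members and 1017 genes had an unadjusted p below 0.05. Several also rested on 1 array. Without Nestin tumor 1, 4 members and 266 of 11846 genes were lower. The calls of Nid1 (-1.29), Lamc1 (-0.79), Col4a2 (-1.06), Col11a1 (-2.43), Plod1 (-1.09) and Adamts1 (-1.43) were then lost. Leaving out Nestin tumor 2 ended the calls of Col18a1 (-1.02), Col4a2 (-1.02), Plod1 (-1.15) and Adamts1 (-1.31), and leaving out Nestin tumor 3 those of Col11a1 (-2.42), Lamc1 (-1.24) and Plod1 (-1.31). Among NG2 tumors, Adamts1 was lost without tumor 3 (-1.30) or 4 (-1.32), Plod1 without tumor 1 (-1.18) or 4 (-0.91), and Col4a2 (-1.0 to -1.21) and Lamc1 (-0.96 to -1.12) without tumor 1, 3 or 4. The last 2 were also lost without any Nestin control (-1.19 and -1.12), and Lamc1 without NG2 control 3 (-1.12). Without NG2 tumor 2, 16 members and 507 of 11863 genes were lower. Without NG2 tumor 4, 6 members and 263 of 11844 genes were, and without Nestin tumor 2, 6 members and 273 of 11824 genes.

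Between the control brains of the models 1 of 42 members passed. Loxl1 was lower in Nestin than in NG2 controls (-1.43 ± 0.37, adjusted p = 0.0476), and 0 of 42 were higher, where 1.69% of all genes were higher and 1.78% lower. At an unadjusted p below 0.05, 5 of the 42 differed, as did 1573 of 11927 genes, a similar share. The Loxl1 call was lost in 15 of 27 alternative settings, among them the omission of any of the 6 control arrays (-1.56 to -1.37), of Nestin tumor 1 (-1.43) or of NG2 tumors 2 or 3 (-1.42 and -1.43).

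The size of the tumor effect was tested directly between models. It was larger in the Nestin model for 2 members, Col26a1 and Loxl1, and smaller for 1, Mmp16, with a median over the 42 of -0.41 log2. Control levels enter this difference. For Loxl1, Nestin less NG2 was 1.16 between tumors (adjusted p = 0.0502) and -1.43 between controls. For Mmp16 it was -1.69 between tumors and 1.09 between controls, and for Col26a1 5.04 and 0.61. The Mmp16 control difference did not pass, but it did with the replicate block, with only the controls fitted and without NG2 tumor 4. Over all genes 2.46% were larger and 1.33% smaller in the Nestin model. No basement membrane gene passed this test, and their median was -0.52. At an unadjusted p below 0.05 there were 4 of 12, beside 2240 of 11927 genes. Without NG2 tumor 2 the differences of Hspg2 (-2.59), Col15a1 (-3.12) and Col4a2 (-1.47) passed. The tumor effect can be had within slides. For Loxl1 it was 1.96 on slide 1, 2.72 on slide 3 and -0.33 on slide 2, and for Mmp16 it was -0.37, 0.01 and 2.44. All 3 calls passed in each of the 26 alternative settings run for them, slide as a fixed block included (4.44, 2.54 and -2.68).

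**Figure D4:**
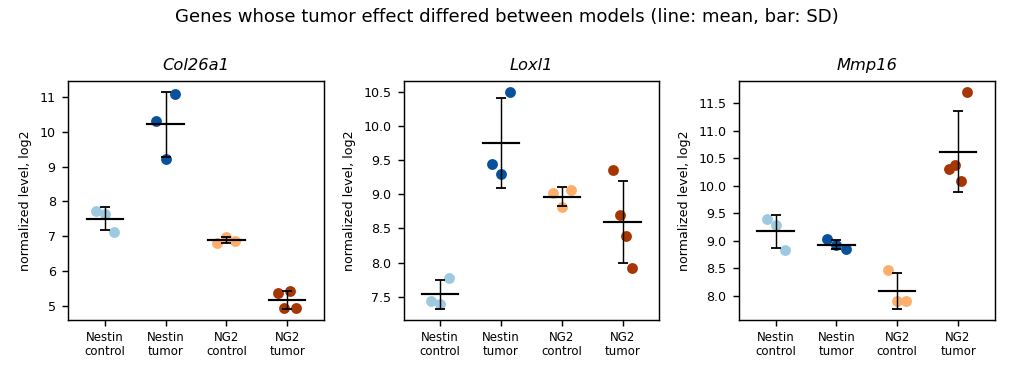
Normalized log2 level on every array (points), with the group mean (line) and SD (bar), for the 3 members whose tumor effect differed between the models. Col26a1 and Loxl1 rise from Nestin controls to Nestin tumors and not in the NG2 model, where Col26a1 is lower in tumors than in controls, and Mmp16 is high in the NG2 tumors.

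The spread between samples was wide among tumors, and not for members alone. Over all genes the lowest correlation with an array of the same group was 0.937 to 0.949 for tumors. For controls it was 0.973 to 0.982. The median SD of the members was 0.56 log2 for the 3 Nestin tumors and 0.71 for the 4 NG2 tumors, and in the controls it was 0.20 and 0.28. In NG2 tumors 16 of 42 spanned over 2 log2, led by Mmp2, Col1a1, Col15a1 and Col11a1, and in Nestin tumors 7 did, led by Timp1, Serpinh1, Lamb2 and Col6a1. Col1a1 did so in Nestin controls, where control 2 read 6.85 and the others 4.70 and 4.94, and no member did in NG2 controls. The range is taken over 4 NG2 tumors but 3 arrays of each other group, which favours wide ranges in NG2 tumors. NG2 tumor 4 had the highest level of its group for 22 of the 42 and NG2 tumor 2 the lowest for 24. Nestin tumor 3 was the highest of its group for 22 and Nestin tumor 1 the lowest for 26. Such ranges and ranks were not counted over all genes. In Nestin tumor 1 Lamb2 read 5.91 against 9.25 and 7.54 in the others, and Col6a1 7.09 against 10.20 and 9.91.

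**Figure D5:**
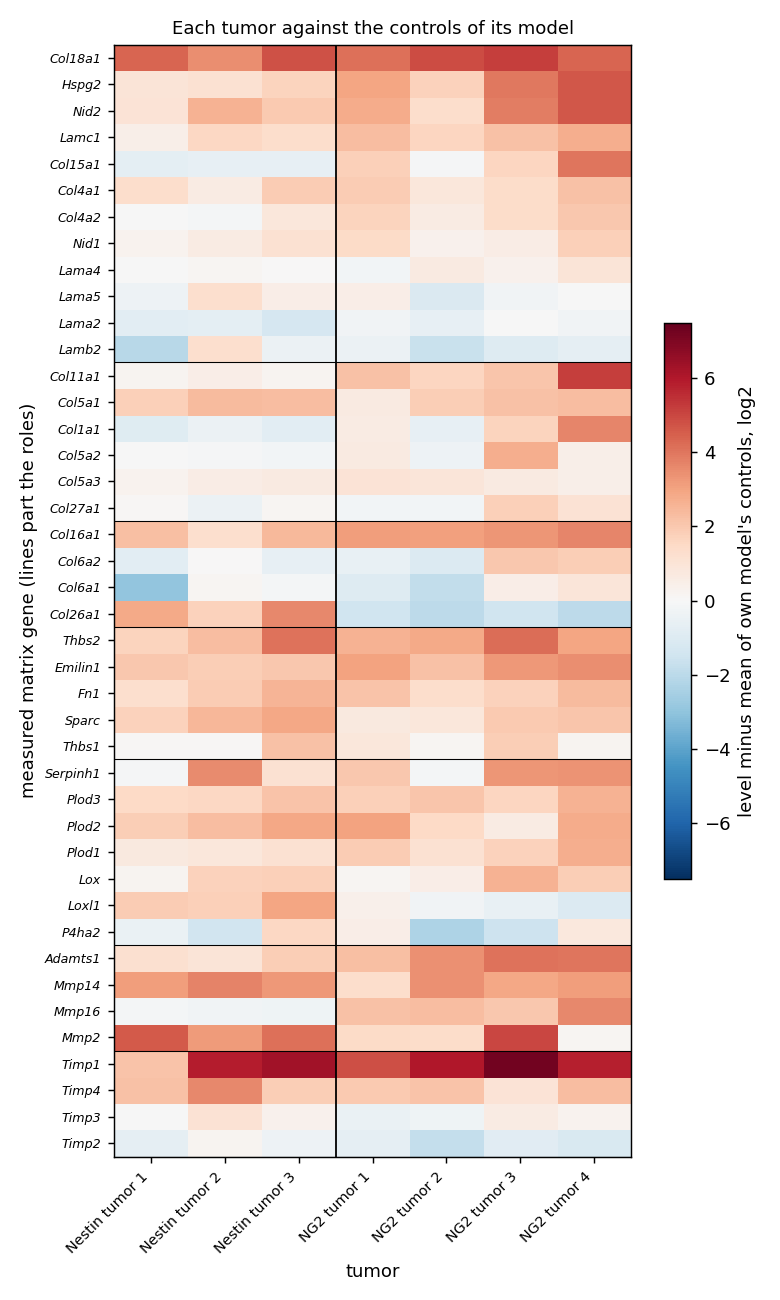
Level of each of the 42 measured matrix genes (rows, parted by role) in each of the 7 tumors (columns), in log2 relative to the mean of the 3 controls of its model (colour). Col18a1, Timp1 and Thbs2 are raised in every tumor, while Col1a1 and Col6a2 are raised mainly in NG2 tumors 3 and 4.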

How the data were processed

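RNA of 13 samples was measured on single-colour Illumina mouse arrays. Per the file headers, the deposited table holds for each array the authors' non-normalized intensity of every probe with a detection p-value against negative controls. The sources used here do not say whether background had been subtracted. A second deposited table, taken as log2 values from their range, holds the authors' processed values of the same arrays. The sources used here do not give its normalization, it served as an alternative, and its columns correlated with their own array at 0.99999 or more and with others at 0.981 or less (column medians 5.29 to 5.31).

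Intensities were corrected and quantile normalized with neqc of limma 3.58.1 in R 4.3.3 (offset 16, background from the detection p). Probes with detection p below 0.05 on at least 3 arrays were kept, genes were named from the platform's table, and the probe of highest mean signal stood for a gene. One mean per group was fitted over all arrays, with empirical Bayes moderation along an intensity trend and residual degrees of freedom of 9. Adjusted p-values are Benjamini-Hochberg over 11927 genes, and the script was tested on simulated data. Where no array of a group had the probe above background, its array values were raised to the lowest signal above background there, and the fold is a lower bound. Sequences and motif counts come from RefSeq promoter windows (GRCm38.p6), which matched 38 of the 56 members. With 3 or 4 arrays a group, precision is limited by the number of arrays.

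The members, their roles and the marker and matrix lists were chosen with earlier results of these data known. Values on single arrays are given for the largest calls of each role in each tumor comparison (up to 2 rises and 2 falls), for members called between tumors, between controls or in the difference of effects, and for all Timp genes. The single-array values of Col4a1 and Col1a1 were added after seeing the data. Alternatives covered background, normalization, filter, probe choice, slide, replicate number, moderation, the samples in the fit and each array left out. Tumors and controls were not treated as pairs by replicate number in the main fit. Same-numbered deviations correlated at -0.06 to 0.04, and those of other numbers at up to 0.09. With so few samples, these values cannot show whether tumors and controls were paired.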

Additional observations from a re-analysis of the deposited data

Results flagged for a closer look

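Col11a1 in NG2 tumor 4, at 10.04 log2, stood far from the other NG2 tumors, which read 6.46 to 7.05; its gap was 0.84 of the range of the group, above Dixon's critical value for 4 samples. Of the 42 members tested in this way 1 was flagged, and chance flags about 1 in 20 groups. Without that tumor the comparison of NG2 tumors with their controls still passed for Col11a1.

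The tumor effect differed between the models by a test of the difference itself for 3 members. It was larger in the Nestin model by 4.43 log2 for Col26a1 and by 2.59 for Loxl1, and the difference was -2.77 for Mmp16. Control levels are part of these values, at -1.43 for Loxl1 and 1.09 for Mmp16 in Nestin less NG2 controls. For Col26a1 every Nestin tumor was above every Nestin control and every NG2 tumor below every NG2 control. The used Mmp16 probe and a further probe of the gene moved alike, while a weak Col26a1 probe, above background on 3 arrays, gave 0.35 in Nestin tumors and 0.09 in NG2 tumors.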

How the results depend on the processing

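In 29 alternatives no result reversed. The calls of 14 of 21 members in the Nestin comparison, 21 of 27 in the NG2 comparison and 3 of 3 in the difference of effects passed in every alternative, and 0 of 11 between tumors and 0 of 1 between controls did. Leaving out 1 array at a time gave 15 to 22 members higher and 1 to 2 lower in Nestin tumors, 22 to 28 higher and 2 to 3 lower in NG2 tumors, 1 to 2 higher and 4 to 16 lower between tumors, 0 to 1 higher and 0 to 1 lower between controls, and 2 to 3 larger and 1 to 4 smaller in the difference of effects.

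Counts moved in these settings. Members lower in Nestin tumors, 1 as reported, were 0 with arrays scaled to their medians, 0 within slide 1 and 2 with only the groups compared. Members lower in NG2 tumors, 2 as reported, were 1 without background correction, 1 with median scaling, 1 within slide 2 and 3 with only the groups compared. Between tumors the 1 higher member became 2 with normexp (offset 50), cyclic loess, the authors' table, detection on every array of a group, the mean of probes or no intensity trend, 3 with slide as a random block and 0 with slide as a fixed block; the 10 lower became 0 with slide fixed, 0 with only the groups compared and 6 with the replicate block. Between controls the 1 lower became 0 with normexp, no background correction, cyclic loess, median scaling, no filter or slide fixed, and 6 with only the groups compared, while the 0 higher became 1 with the replicate block and 1 with only the groups compared. Members smaller in the difference of effects, 1 as reported, were 2 with the replicate block. The replicate block gave 21 higher in Nestin and 24 in NG2 tumors. Within slide 1, 14 members were higher in Nestin tumors. With only the tumor groups compared, 16 of 42 members and 2326 of 11927 genes had an unadjusted p below 0.05 in limma's test. Of all genes 131 were then higher and 35 lower after adjustment. Fits within 1 slide or of only the groups compared give no difference of effects. Without background correction 4 members still higher or lower in the Nestin comparison and 7 in the NG2 comparison moved by over 1.5 times. The causes were not tested.

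Scaling to the median raised the median of all genes to 0.45 log2 in the Nestin and 0.47 in the NG2 comparison and called 4427 genes higher and 1642 lower, and 4862 and 1914, against 2905 and 2615, and 3167 and 2876, as reported. Members had medians of 1.46 and 2.07 there, with 24 and 27 higher. Levels near background, as for Thbs1, Col11a1 and Lama4, limit what those probes show.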

Other observations

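Further matrix genes were listed beside the members. Of 30 measured genes of other collagens, laminins, elastic fiber and matricellular proteins, 9 were higher and 2 lower in Nestin tumors (median 0.75 log2), where 24.4% of all genes were higher and 21.9% lower (median 0.06). In NG2 tumors 14 were higher and 5 lower (median 0.63), against 26.6% and 24.1% over all genes (median 0.09). Mfap2, which encodes a microfibril protein, had the largest rise in Nestin tumors at 2.99 ± 0.43 (adjusted p = 8.5e-05), with 10.41, 8.91 and 10.38 in tumors and 7.59, 6.77 and 6.37 in controls, and it rose by 2.83 ± 0.40 in NG2 tumors. Smoc1, a secreted calcium-binding protein of basement membranes, rose by 2.87 ± 0.30 in the Nestin model (adjusted p = 5.95e-06) and 1.02 ± 0.28 in the NG2 model. Its effects differed between models by 1.85 ± 0.42 (adjusted p = 0.0252), beside a level that was lower in Nestin than in NG2 controls (-2.31 ± 0.30). Vtn, for vitronectin, fell in both (-1.57 ± 0.39 and -1.44 ± 0.36), Lamc3, a laminin chain, was lower in Nestin tumors (-1.01 ± 0.29), and Col23a1 was lower in NG2 tumors (-2.19 ± 0.61).

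The largest rises of that list in NG2 tumors were further collagen IV chains. Col4a5 read 9.64, 9.11, 10.08 and 10.45 in NG2 tumors and 6.0, 5.44 and 5.73 in NG2 controls, a rise of 4.10 ± 0.68 (adjusted p = 0.000193). In Nestin tumors it read 4.92, 8.40 and 8.64, so tumor 1 lay below the controls (5.48, 5.76 and 5.93) and the others above. Col4a6 read 7.96, 7.41, 9.03 and 8.54 in NG2 tumors and was above background on no control, a rise of at least 7.25-fold (adjusted p = 1.95e-05; means 8.23 and 5.0). Between tumor groups Col4a5 and Col4a6 were lower in Nestin tumors (-2.50 ± 0.68 and -2.77 ± 0.41), with slide and model not separable, and the tumor effect on Col4a6 differed between models (-2.64 ± 0.60, adjusted p = 0.0271).

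Of 27 measured enzymes of matrix synthesis and turnover outside the members, 10 were higher and 2 lower in Nestin tumors, and 13 and 2 in NG2 tumors, beside 24.4% and 21.9% of all genes in the Nestin and 26.6% and 24.1% in the NG2 comparison. Of 22 matrix receptors, mainly integrins and syndecans, 10 were higher and 2 lower in Nestin tumors, and 10 and 1 in NG2 tumors. Of 11 TGF-beta ligands and receptors, 3 were higher and 0 lower in Nestin tumors, and 4 and 1 in NG2 tumors, higher counts that are near the shares over all genes. Other marker lists moved too: all 5 measured neuronal markers were lower in both models, and the microglia and macrophage markers summed to 15604 in Nestin tumor 2 against 5604 and 6058 in the other Nestin tumors. Of their 6 measured genes, 2 were higher and 0 lower in Nestin tumors and 2 higher and 1 lower in NG2 tumors. Astrocyte markers (6 measured) were higher for 1 and lower for 1 in Nestin tumors and lower for 4 in NG2 tumors, and oligodendrocyte markers (5 measured) were higher for 1 in each model and lower for 4 and 3. No choroid plexus marker of the 4 measured passed in either model.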
